A study of Mus musculus with 35 samples.

Results

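Leukocyte integrins and adhesion receptors are described here through 9 mouse genes: the integrin subunit genes Itgb7, Itga4, Itgal, Itgb1, Itgb2, Itga1 and Itgav, the hyaluronan receptor gene Cd44 and the selectin ligand gene Selplg. They were taken by name and not by a cutoff on measured values, but with earlier results of these data known. Every probe whose accession belongs to any of them was used, which gave 18 of the 39429 probes on the array and 9 of its 20886 named genes. Itgae, which encodes CD103, had 0 matched probes, so its partner chain Itgb7 stands for that integrin here. Expression was measured on 35 single-color oligonucleotide arrays, each of 1 RNA sample from healthy wild type C57BL/6 female mice of 8 to 16 weeks.

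Of the 8 groups, 4 were magnetically sorted T cells and 4 were unsorted. Resident memory cells (Trm) of the liver (n = 5), lung (n = 6) and small intestine (n = 6) came from organs that were enzymatically dissociated, passed over a gradient of 40% and 80% Percoll, and positively selected for CD8b and then for CD103. Circulating effector memory cells (Tem, n = 6) were blood T cells of the same animals, selected for CD8b and then put through a depletion step, so the CD103 selection, that depletion and the organ digestion differ between Trm and Tem. Whole liver, whole lung, whole small intestine and whole PBMC (blood mononuclear cells), n = 3 each, were left unsorted. Per the labels, Tem served as a circulating reference, and the whole samples as a control for tissue cells carried over into the sorted cells. No animal carried a transgene or a treatment, and the labels do not tie an array to an animal, so p-values measure only the spread between these samples, which may be technical.

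Integrins are pairs of an alpha and a beta chain, and which chain pairs with which sets the ligand. The beta7 chain pairs with alphaE (CD103) to bind E-cadherin on epithelium, or with alpha4 to bind MAdCAM-1 on vessels of the gut, while alpha4 with beta1 binds VCAM-1 and fibronectin, alphaL with beta2 (LFA-1) binds ICAMs, alpha1 with beta1 binds collagen and alphaV pairs with several beta chains to bind vitronectin, fibronectin and latent TGF-beta. CD44 binds hyaluronan and is a marker of T cells that have met antigen, and PSGL-1, the product of Selplg, is the main selectin ligand by which leukocytes roll on vessel walls.

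The arrays differed in how much signal they held. The share of probes well above background, as the scanner software called it, was 12.2% to 35.5% on the sorted-cell arrays and 7.80% to 64.6% on the whole-sample arrays. Liver Trm 3 had the lowest share of the sorted cells (12.2%), whole PBMC 1 the lowest of all (7.80%) and whole liver 2 the highest (64.6%), and those 3 arrays are named below wherever a result rests on them. Of 13 tested T cell markers, 12 to 13 were well above background on every sorted array, and Cd8a, Cd8b1 and Cd3e were so on all 23. Against Tem, 3 of the 13 were lower in liver Trm, 0 in lung Trm and 2 in intestine Trm, with none higher and medians of -0.40, -0.24 and -0.39. Their summed levels (linear level over each array's 75th percentile) were 5.11 to 12.6 in liver Trm, 7.50 to 12.4 in lung Trm, 5.92 to 13.5 in intestine Trm and 10.8 to 19.0 in Tem, and their part in the lower members below was not tested. Markers of the organ were carried with the Trm cells: the 12 hepatocyte markers summed to 2.68 to 23.6 in liver Trm (21.0 to 23.3 in whole liver) against 0.0435 to 0.0968 in Tem. The same sums were 0.159 to 8.75 in lung Trm and 0.108 to 0.247 in Tem for lung epithelium, and 0.402 to 3.43 in intestine Trm and 0.0323 to 0.0725 in Tem for gut epithelium.

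Levels below are log2 intensities relative to the 75th percentile of the same array, so 0 is a bright probe and -6 is near the floor. They compare arrays for 1 probe and do not rank genes against each other. A gene was tested if 3 or more arrays of 1 group detected a probe of it well above background, and differences are limma estimates ± SE with Benjamini-Hochberg adjustment over all genes tested, called at an adjusted p under 0.05. Among the sorted cells, 7 of the 9 genes passed that filter, and Itgav and Itga1 did not.

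Against circulating Tem, alpha4 and a dim beta1 probe were called lower in all 3 Trm populations, although both lung calls were easily lost. The beta7 chain that CD103 needs was not called in any of them. In liver Trm, 4 of the 7 tested members were lower and none was higher, where 25.4% of all genes were called lower, 14.9% higher and 40.3% in either direction. In lung Trm, 2 of 7 were lower and none was higher, where 1.03% of all genes were lower, 2.10% higher and 3.13% in either direction. In intestine Trm, 3 of 7 were lower and 1 was higher, against 9.60% lower, 8.10% higher and 17.7% in either direction over all genes. The same numbers passed at an unadjusted p under 0.05. The median log2 difference of the 7 members was -1.50 in liver, -0.43 in lung and -0.43 in intestine, beside medians over all tested genes of -0.28, -0.10 and -0.03. The 3 comparisons share the same 6 Tem arrays, so they are set side by side and not counted as separate evidence.

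**Figure D1:**
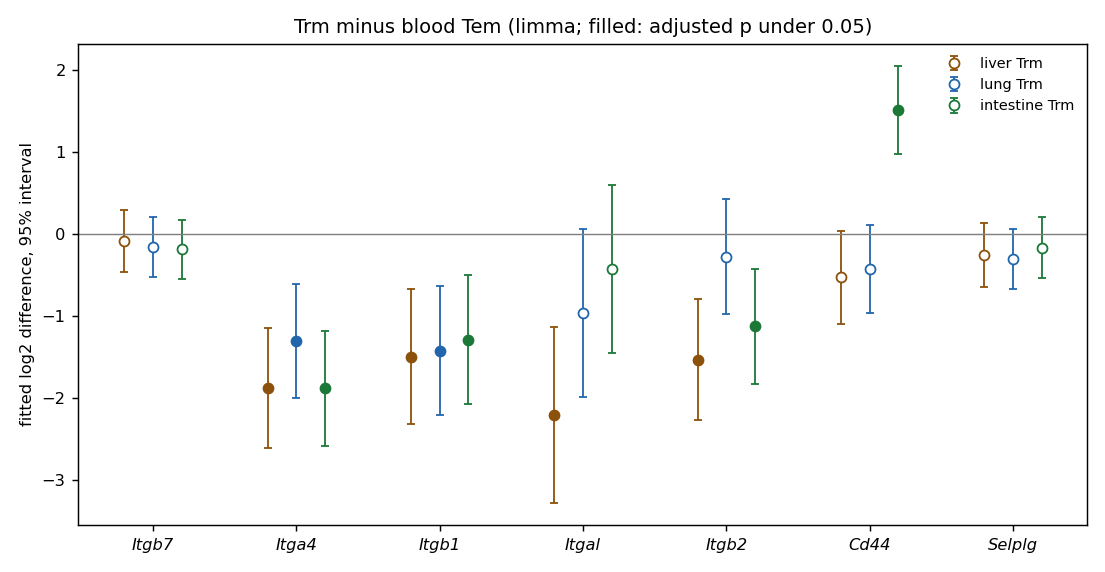
Fitted log2 differences (Trm minus Tem) of the 7 tested members in liver, lung and intestine Trm, with bars for the 95% interval and filled points for calls at an adjusted p under 0.05. Itga4 lies between -1.88 and -1.30 in all 3 organs, Itgb7 between -0.19 and -0.08, and the one call above 0 is Cd44 of intestine Trm, at 1.52.

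Itgb7, the beta chain shared by the CD103 integrin and alpha4beta7, was bright in every sorted array. Its levels were 1.60, 1.49, 1.71, 1.01 and 1.61 in liver Trm 1, 2, 3, 5 and 6. They ran from 1.24 to 1.64 in lung Trm (median 1.39), from 1.07 to 1.67 in intestine Trm (median 1.38) and from 1.33 to 1.71 in Tem (median 1.58). All 4 groups overlapped, with liver Trm 5 the lowest array of all, so cells selected for surface CD103 did not separate from the blood cells in the beta7 transcript. The differences from Tem were -0.08 ± 0.18 in liver (95% interval -0.46 to 0.30, adjusted p = 0.722), -0.16 ± 0.17 in lung (-0.52 to 0.20, adjusted p = 0.709) and -0.19 ± 0.17 in intestine (-0.55 to 0.18, adjusted p = 0.476). Each interval stays above -0.55 and below 0.30, which holds for this scaling only. With scaling over all probes the Itgb7 difference in liver was -0.56, not called, so the intervals do not bound what these arrays could have missed.

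Itga4, the alpha4 chain that pairs with beta7 or beta1, was lower in Trm of all 3 organs. Its levels were -1.54, -1.45, -2.57, -2.66 and -2.90 in liver Trm 1, 2, 3, 5 and 6, from -2.50 to -1.11 in lung Trm (median -1.54), from -3.42 to -1.65 in intestine Trm (median -2.06) and from -1.05 to 0.23 in Tem (median -0.30). Not a single Trm array reached the lowest Tem array, and the probe was well above background on all 23. The fall was 3.69-fold in liver (-1.88 ± 0.35, adjusted p = 9.0e-04), 3.69-fold in intestine (-1.88 ± 0.34, adjusted p = 5.2e-04) and 2.47-fold in lung (-1.30 ± 0.34, adjusted p = 0.0327). Within slides, each of which held 1 array per sorted group except 1 slide with no liver Trm array, Trm was below Tem on 5 of 5 slides in liver (-2.91 to -0.91), on 6 of 6 in lung (-1.66 to -0.82) and on 6 of 6 in intestine (-3.64 to -0.78). The liver and intestine calls held in all 12 alternative analyses and with any 1 array left out. The lung call did not: it was lost without lung Trm 1, 2, 5 or 6 or Tem 2, 3, 4 or 6 (differences of -1.35 to -1.13, adjusted p of 0.0521 to 0.0838) and in 4 of 12 alternative analyses.

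Itgb1, the beta1 chain, was measured by a dim probe. Its levels were -6.28, -5.70, -5.93, -6.07 and -7.04 in liver Trm 1, 2, 3, 5 and 6, from -6.73 to -5.64 in lung Trm (median -6.08), from -7.22 to -4.91 in intestine Trm (median -6.18) and from -5.15 to -3.14 in Tem (median -4.98). It was well above background on 6 of 6 Tem arrays but on only 1 of 5 liver, 3 of 6 lung and 2 of 6 intestine Trm arrays, and Tem 2 was the highest of all. The differences were -1.50 ± 0.40 in liver (adjusted p = 0.00825), -1.42 ± 0.38 in lung (adjusted p = 0.0391) and -1.29 ± 0.38 in intestine (adjusted p = 0.0217). Liver and lung Trm did not overlap Tem, and intestine Trm did. Probes that were never above background read 1.32 higher in liver Trm, 0.24 higher in lung Trm and 0.70 higher in intestine Trm than in Tem. The part of background signal in the Itgb1 differences was not tested.

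The beta1 result was less firm than that of alpha4. The lung call was lost without lung Trm 2, 3, 5 or 6 or Tem 1, 2, 3 or 6 (Itgb1 differences of -1.50 to -1.11, adjusted p up to 0.0948), and the intestine call without intestine Trm 6 (-1.04, adjusted p = 0.0603) or Tem 2 (-0.98, adjusted p = 0.0514). A second Itgb1 probe was above background on 3 of 6 Tem arrays and on 0 of 5 liver, 0 of 6 lung and 0 of 6 intestine Trm arrays, so it gives no measured level in Trm. Its adjusted p was 0.272 in liver, 0.0759 in lung and 0.0470, lower, in intestine. With the first probe, normexp background correction gave -0.13 in liver (adjusted p = 0.723). Over 13 alternative analyses, the second probe among them, the Itgb1 call held in 11 in liver, in 10 in intestine and in 6 in lung.

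Since alpha4 and beta1 were lower in Trm cells, while beta7, the other beta chain that pairs with alpha4, was not called, the 250 bases before the annotated start of each gene are shown, from RefSeq on GRCm38.p6, the mouse build, 5′ to 3′ along the gene's strand. RefSeq promoters were matched for 6 of the 9 genes, and the regions are chr15:102231936-102232185 on the minus strand (Itgb7), chr2:79255176-79255425 on the plus strand (Itga4) and chr8:128685404-128685653 on the plus strand (Itgb1). Capitals mark CACCC, the core of KLF-type motifs, TGTGGT, a RUNX-type motif, and CCGGAA, an ETS-type motif, searched on both strands, so a capital GGGTG or ACCACA is a match on the opposite strand.
Itgb7: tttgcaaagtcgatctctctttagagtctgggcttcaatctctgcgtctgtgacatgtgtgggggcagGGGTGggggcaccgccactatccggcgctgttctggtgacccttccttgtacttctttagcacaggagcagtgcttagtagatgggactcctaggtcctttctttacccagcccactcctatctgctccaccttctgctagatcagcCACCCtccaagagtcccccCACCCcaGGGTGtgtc
Itga4: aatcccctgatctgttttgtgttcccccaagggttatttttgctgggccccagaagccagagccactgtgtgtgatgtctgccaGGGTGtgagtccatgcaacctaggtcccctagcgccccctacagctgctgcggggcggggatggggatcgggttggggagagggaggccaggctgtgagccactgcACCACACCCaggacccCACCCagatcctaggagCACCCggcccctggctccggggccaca
Itgb1: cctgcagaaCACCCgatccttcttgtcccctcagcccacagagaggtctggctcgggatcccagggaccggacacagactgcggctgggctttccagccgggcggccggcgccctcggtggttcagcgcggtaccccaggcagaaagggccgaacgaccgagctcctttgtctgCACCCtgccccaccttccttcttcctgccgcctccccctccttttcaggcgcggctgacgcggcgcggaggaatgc
Itgb7 held 4 CACCC matches, Itga4 held 4 and Itgb1 held 2. Of 32851 RefSeq promoters of that length, 52% held at least 1 CACCC, 14% held TGTGGT and 12% held CCGGAA. Itga4 alone of the 3 held TGTGGT, 60 bases before its start on the opposite strand, where it overlaps a CACCC, and CCGGAA was in none of the 3. Of the other matched promoters, that of Itga1 held 2 CACCC matches, that of Itgav held 1, and that of Cd44 held none of the 3 motifs. These are matches of letters within a window, and the arrays did not measure the binding of any factor.

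**Figure D2:**
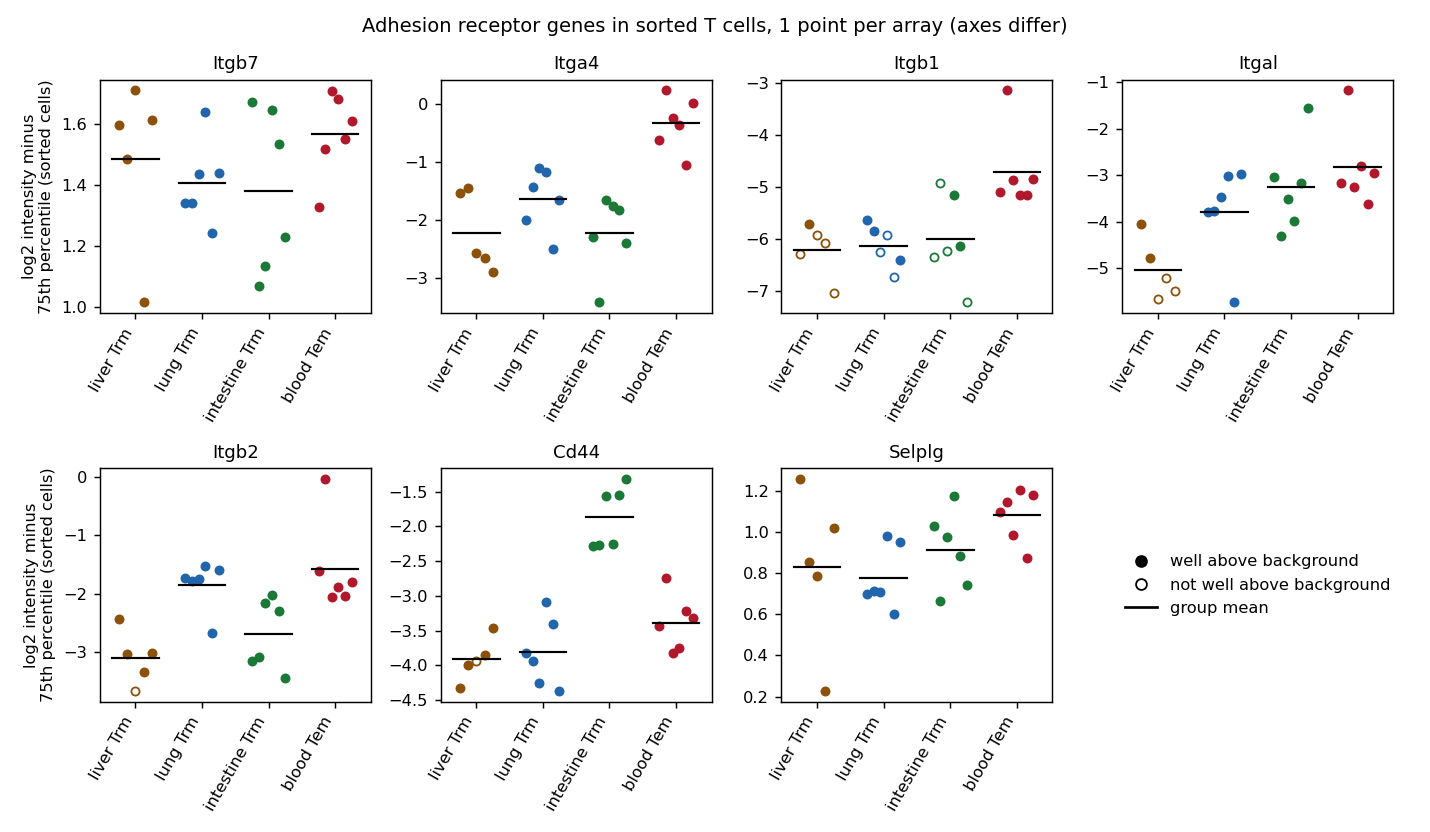
Log2 level of each tested member on every sorted-cell array, relative to the array's 75th percentile (0), by group, with bars for the group mean and open points for arrays where the probe was not well above background. Itga4 of Tem (-1.05 to 0.23) lies clear of all Trm arrays, Cd44 of intestine Trm (-2.28 to -1.32) lies clear of the other 3 groups, and Itgb7 overlaps throughout.

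Of the 2 chains of LFA-1, Itgb2 was called lower than in Tem in liver and intestine Trm and not in lung. Itgal was called only in liver, and by only 1 of its probes. Itgb2, the beta2 chain, had levels of -2.43, -3.04, -3.67, -3.35 and -3.02 in liver Trm 1, 2, 3, 5 and 6, from -2.68 to -1.53 in lung Trm (median -1.74), from -3.44 to -2.02 in intestine Trm (median -2.69) and from -2.05 to -0.04 in Tem (median -1.84). Liver Trm lay below Tem without overlap, intestine Trm lay mostly below it, and lung Trm ran alongside it except for the low lung Trm 5. Itgb2 fell by 1.53 ± 0.36 in liver (2.89-fold, adjusted p = 0.00384) and fell by 1.12 ± 0.34 in intestine (2.18-fold, adjusted p = 0.0246). In lung the Itgb2 difference was -0.28 ± 0.34 (95% interval -0.98 to 0.43, adjusted p = 0.740), with Trm lower on 3 of 6 slides against 5 of 5 in liver and 6 of 6 in intestine. The intestine call was lost without intestine Trm 1, 2 or 6 or Tem 2 (-1.05 to -0.82, adjusted p of 0.0548 to 0.0633), and the liver call held with any 1 array left out.

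Itgal, the alphaL chain that pairs only with beta2, was read by 2 probes that disagree. The probe with the higher mean in the sorted cells gave -4.05, -4.79, -5.68, -5.22 and -5.50 in liver Trm 1, 2, 3, 5 and 6, from -5.74 to -2.98 in lung Trm (median -3.62), from -4.32 to -1.56 in intestine Trm (median -3.34) and from -3.63 to -1.18 in Tem (median -3.07). Liver Trm was below every Tem array, and 3 of its 5 arrays were not well above background, while lung Trm (5 low) and intestine Trm (6 high) overlapped Tem. By this probe Itgal was lower in liver Trm (-2.21 ± 0.52, adjusted p = 0.00408), and the differences were -0.96 ± 0.49 in lung (adjusted p = 0.366) and -0.43 ± 0.49 in intestine (adjusted p = 0.562). The second Itgal probe was well above background on every sorted array, with -4.04, -4.96, -3.40, -3.95 and -3.96 in liver Trm and a median of -3.55 in Tem, and its liver difference was -0.57 (adjusted p = 0.268). So the alphaL fall in liver Trm rests on 1 probe, and it was also lost under quantile normalization (-0.32, adjusted p = 0.485) and normexp (-0.15, adjusted p = 0.758).

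Cd44 was higher in intestine Trm than in the other 3 sorted groups. Its brightest probe had levels of -4.33, -3.99, -3.94, -3.86 and -3.46 in liver Trm 1, 2, 3, 5 and 6, from -4.37 to -3.09 in lung Trm (median -3.88), from -2.28 to -1.32 in intestine Trm (median -1.91) and from -3.83 to -2.75 in Tem (median -3.38). Every intestine Trm array was above every array of the other 3 groups, which overlapped each other. Cd44 was 2.86-fold higher in intestine Trm than in Tem (1.52 ± 0.26, adjusted p = 3.5e-04, higher on 6 of 6 slides), and the difference was -0.53 ± 0.27 in liver (95% interval -1.10 to 0.03, adjusted p = 0.119) and -0.43 ± 0.26 in lung (adjusted p = 0.454). The intestine call held with any 1 array left out.

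A second Cd44 probe did not show the rise. It was above background on 0 of 5 liver, 3 of 6 lung, 3 of 6 intestine and 6 of 6 Tem arrays, with medians of -5.45 in intestine Trm and -5.28 in Tem, and gave -0.31 for intestine Trm minus Tem (adjusted p = 0.698). Liver Trm was lower than Tem by this probe (adjusted p = 0.0104), where no liver Trm array measured it. The other 2 Cd44 probes were above background only on whole liver 2. Cd44 is spliced into many forms, and which of them each probe reads was not tested. Fibroblasts and epithelium also make CD44, and their markers moved with it: 6 of 7 tested gut epithelial and 6 of 7 tested fibroblast and smooth muscle markers were higher in intestine Trm than in Tem, with summed levels of 0.402 to 3.43 against 0.0323 to 0.0725 and of 0.138 to 4.96 against 0.0399 to 0.0560. The part of those cells in the Cd44 result was not tested.

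**Figure D3:**
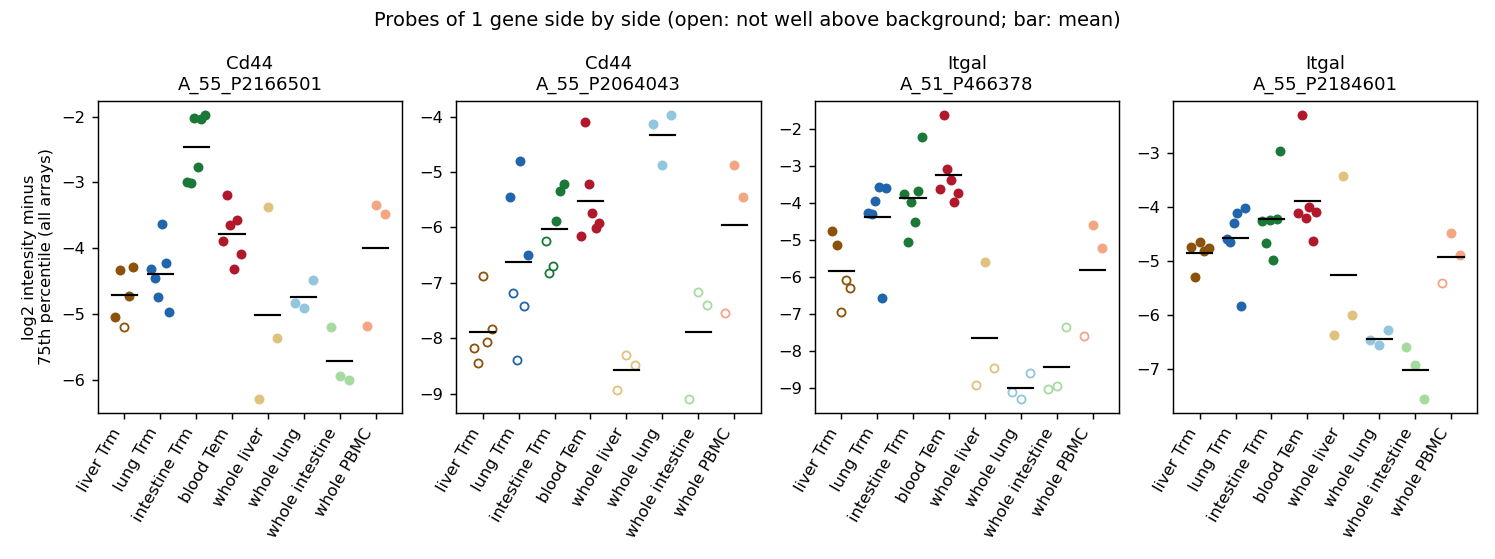
Log2 levels of both detected probes of Cd44 and of Itgal, 1 point per array, in all 8 groups on the all-array scale, relative to each array's 75th percentile (0), with bars for the group mean and open points for arrays not well above background. The intestine Trm arrays stand above Tem with 1 Cd44 probe and overlap it with the other, and liver Trm lies below Tem with 1 Itgal probe and overlaps it with the other.

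Selplg, the gene of PSGL-1, stayed bright in every sorted array. Its levels were 1.26, 0.85, 0.79, 0.23 and 1.02 in liver Trm 1, 2, 3, 5 and 6, from 0.60 to 0.98 in lung Trm (median 0.71), from 0.66 to 1.17 in intestine Trm (median 0.93) and from 0.87 to 1.21 in Tem (median 1.12). The groups overlapped, with Tem at the upper end. The differences from Tem were -0.25 ± 0.19 in liver (adjusted p = 0.274), -0.30 ± 0.18 in lung (95% interval -0.68 to 0.07, adjusted p = 0.438) and -0.17 ± 0.18 in intestine (adjusted p = 0.528). The second Selplg probe gave -0.81 in liver (adjusted p = 0.0247), -0.73 in lung (adjusted p = 0.158) and -0.47 in intestine (adjusted p = 0.233), so its liver fall is again a result of 1 probe.

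The remaining 2 members gave little. Itga1, the alpha1 chain of the collagen receptor that is used at the surface as a marker of resident T cells, had 2 probes, and both were above background on 1 of 35 arrays, whole liver 2, at -5.57 and -5.45 on the all-array scale. Itgav, the alphaV chain, was above background on 2 of 5 liver, 2 of 6 lung, 1 of 6 intestine Trm and 2 of 6 Tem arrays. Neither gene could be tested between sorted populations.

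Between Trm populations, Cd44, Itgb2 and Itgal were the members called, Cd44 and Itgal by only 1 probe each. Lung against liver Trm gave 1 higher member of 7 and none lower (9.30% of all genes higher, 8.53% lower, 17.8% either). Intestine against liver gave 2 higher and none lower (8.87%, 2.84% and 11.7%), and intestine against lung gave 1 higher and none lower (5.24%, 4.26% and 9.50%). Cd44 was 4.13-fold higher in intestine than in liver Trm (2.05 ± 0.27, adjusted p = 2.0e-05) and 3.84-fold higher than in lung Trm (1.94 ± 0.26, adjusted p = 3.3e-05), without overlap, on 5 of 5 and 6 of 6 slides. With the second Cd44 probe, which no liver Trm array measured above background, neither was called (adjusted p = 0.0523 against liver, and 0.62 with adjusted p = 0.507 against lung). For alpha4 no difference between Trm populations was called, within wide bounds. Itga4 differed by -0.00 between intestine and liver (95% interval -0.73 to 0.73) and by 0.58 between lung and liver (-0.15 to 1.31, adjusted p = 0.223). Between intestine and lung it differed by -0.58 (-1.28 to 0.12, adjusted p = 0.295). Lung minus liver was called for Itga4 in 1 of 12 alternative analyses (differences of 0.29 to 1.04, lowest adjusted p = 0.00527).

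Itgb2 was 2.39-fold higher in lung than in liver Trm (1.26 ± 0.36, adjusted p = 0.0247), on 5 of 5 slides, although the ranges met because lung Trm 5 was low. This call was lost without liver Trm 3 (1.098, adjusted p = 0.0613), 5 (1.19, adjusted p = 0.0681) or 6 (1.28, adjusted p = 0.0575), while all 12 alternative analyses kept it. The 13 T cell markers summed to 5.74, 5.11 and 8.19 in liver Trm 3, 5 and 6 and to 10.3 and 12.6 in liver Trm 1 and 2. Their part in the Itgb2 call was not tested. Itgb2 differed by 0.41 between intestine and liver (adjusted p = 0.460) and by -0.85 ± 0.34 between intestine and lung (adjusted p = 0.112). Itgal was 3.44-fold higher in intestine than in liver Trm by its brighter probe (1.78 ± 0.52, adjusted p = 0.0262) and 0.43 by the other (adjusted p = 0.516), and the call was lost without liver Trm 3, 5 or 6 or intestine Trm 6 (1.45 to 1.74, adjusted p of 0.0579 to 0.0776). Over 13 alternative analyses, the other probe among them, this Itgal call held in only 5 (differences of 0.13 to 1.99, adjusted p up to 0.838). Lung minus liver was 1.25 ± 0.52 for Itgal (adjusted p = 0.0809) and passed the threshold without liver Trm 1 (1.498, adjusted p = 0.0492) or lung Trm 5 (1.64, adjusted p = 0.0170).

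The comparison with unsorted samples asked which of these transcripts were at higher levels in the sorted T cells than in the organ they came from. All sorted arrays fell in scan 1 and on other slides than the whole samples, which fell in scan 2, so scan, slide and sorting cannot be told apart here, and in a whole sample fewer T cells and less RNA per cell cannot be told apart either. Levels in this comparison are on a scale over all 35 arrays. Itgb7, Itga4, Itgb2 and Selplg were higher in Trm than in the whole organ in all 3 organs. Of 8 tested members, 4 were higher in liver Trm (8.53% of all genes), 5 in lung Trm (15.7%) and 6 in intestine Trm (11.7%), and none was lower (23.8%, 25.8% and 20.1%), while 32.3%, 41.6% and 31.8% of all genes were called in either direction. The member medians were 1.89, 2.28 and 3.48, beside all-gene medians of -0.33, 0.09 and -0.01.

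Itgb7 was far lower in whole organs. Whole liver 1, 2 and 3 had -5.71, -3.30 and -4.41, whole lung -2.65, -2.68 and -2.45, and whole intestine -3.21, -3.77 and -2.56, whereas the lowest Trm arrays were at 0.14 in liver, 0.42 in lung and 0.33 in intestine. No whole-organ array came near a sorted array. Itgb7 was 35.7-fold higher in liver Trm (5.16 ± 0.60, adjusted p = 3.9e-08), higher in lung Trm (3.42 ± 0.58, adjusted p = 1.1e-05) and 15.6-fold in intestine Trm (3.96 ± 0.58, adjusted p = 1.3e-06). Selplg went alongside, with -5.23, -3.76 and -4.77 in whole liver, -3.34, -3.52 and -3.18 in whole lung and -4.13, -4.60 and -3.78 in whole intestine. It was 24.5-fold higher in liver Trm (4.62 ± 0.58, adjusted p = 1.7e-07), 11.7-fold in lung Trm (3.55 ± 0.57, adjusted p = 4.6e-06) and 22.3-fold in intestine Trm (4.48 ± 0.57, adjusted p = 8.3e-08).

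Itga4 was not well above background on any whole liver array (-8.90, -6.63 and -7.97) and on 1 of 3 whole intestine arrays (-7.48, -6.59 and -5.58). Whole lung was brighter, at -4.80, -5.12 and -4.86. Liver Trm was at least 11.1-fold higher than whole liver (adjusted p = 1.2e-05), lung Trm was 6.52-fold higher (2.71 ± 0.77, adjusted p = 0.00452) and intestine Trm 13.2-fold higher (3.72 ± 0.77, adjusted p = 2.3e-04). Itgb2, which myeloid cells also express, had -8.99, -4.22 and -8.59 in whole liver, -6.05, -6.23 and -6.00 in whole lung and -8.43, -9.09 and -7.16 in whole intestine. Whole liver 2 stood above its 2 partners and reached the liver Trm range. The Itgb2 probe was well above background on 1 of 3 whole liver, 3 of 3 whole lung and 1 of 3 whole intestine arrays. Its liver and intestine differences are thus set mostly against signal near background. The Itgb2 difference was 3.36 ± 0.86 in liver (adjusted p = 0.00224), and 4.89 (adjusted p = 4.2e-05) without whole liver 2, 12.8-fold in lung (3.67 ± 0.83, adjusted p = 4.4e-04) and 30.5-fold in intestine (4.93 ± 0.83, adjusted p = 1.3e-05).

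Itgal and Cd44 were higher than the whole organ in some organs and not in others. On this scale Itgal is read by its other probe, with whole-organ levels of -6.38, -3.43 and -5.99 in liver, -6.47, -6.56 and -6.29 in lung and -6.60, -6.92 and -7.55 in intestine. Lung Trm was 3.61-fold higher (1.85 ± 0.52, adjusted p = 0.00381) and intestine Trm 6.94-fold higher (2.79 ± 0.52, adjusted p = 5.2e-05). Liver Trm differed by 0.41 (adjusted p = 0.630), and by 1.33 (adjusted p = 0.0492) without the bright whole liver 2. The Itgal probe used among the sorted cells was above background on 0 of 3 whole lung and 0 of 3 whole intestine arrays, and by it lung Trm was at least 6.78-fold higher (adjusted p = 3.1e-06) and intestine Trm at least 9.56-fold higher (adjusted p = 4.2e-06). Its liver difference was 1.81 (adjusted p = 0.0597), with 1 of 3 whole liver arrays above background. Cd44 had -6.28, -3.37 and -5.37 in whole liver, -4.83, -4.91 and -4.48 in whole lung and -5.20, -5.94 and -5.99 in whole intestine. Intestine Trm lay above all 3 whole intestine arrays, by 9.46-fold (3.24 ± 0.47, adjusted p = 1.0e-06), and by at least 2.14-fold (adjusted p = 0.0208) with the second Cd44 probe, which no whole intestine array measured above background. Cd44 of liver Trm (0.29, adjusted p = 0.714) and lung Trm (0.35, adjusted p = 0.598) was not called, and in lung the second Cd44 probe was lower in Trm (-2.30, adjusted p = 0.00282).

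Itgb1 and Itgav, which many tissue cells express, were not called between Trm and the whole organ. Itgb1 differed by -0.67 in liver (adjusted p = 0.435), -0.01 in lung (adjusted p = 0.993) and 0.00 in intestine (adjusted p = 0.997). Itgav differed by -0.50 in liver (adjusted p = 0.496), 0.17 in lung (adjusted p = 0.816) and 0.49 in intestine (adjusted p = 0.420). Both probes sat close to background on most arrays, so the lack of a call sets a limit on these probes, not on the proteins.

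**Figure D4:**
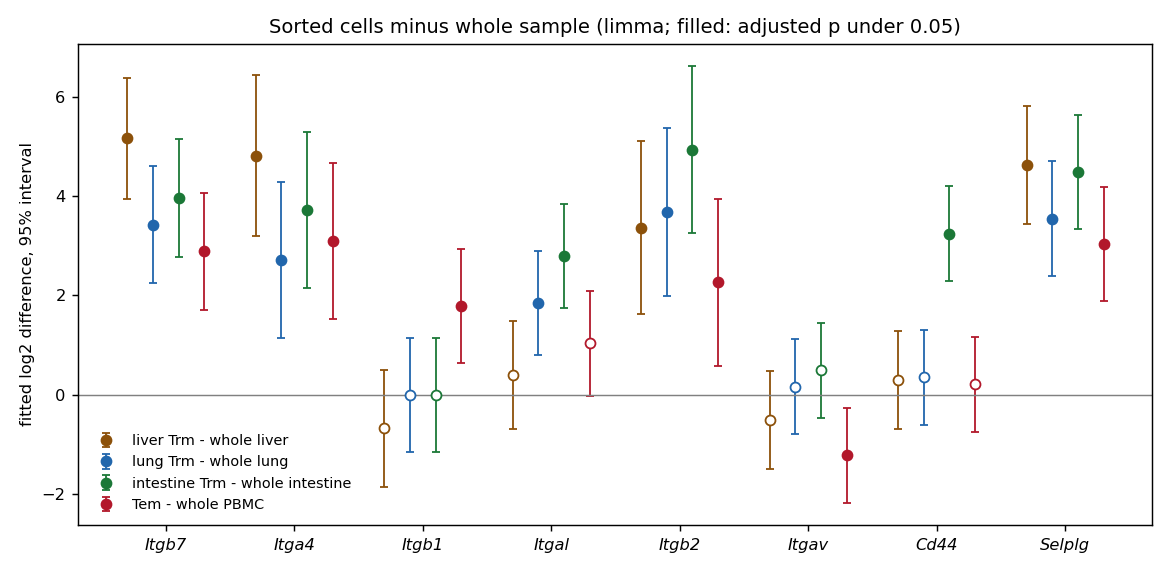
Fitted log2 differences of the 8 tested members between each sorted population and its unsorted counterpart (whole organ for Trm, whole PBMC for Tem), with bars for the 95% interval and filled points for calls at an adjusted p under 0.05. Itgb7 and Selplg lie 2.88 to 5.16 above 0 in all 4 comparisons, and Itgb1 and Itgav lie between -0.67 and 0.49 in the 3 organs.

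Tem against whole PBMC gave 5 higher members of 8 and 1 lower, where 43.9% of all genes were higher, 11.3% lower and 55.2% either. These results rest largely on 1 array. Whole PBMC 1 had -4.68 for Itgb7, -7.67 for Itga4, -7.69 for Itgb2 and -5.39 for Selplg, whereas whole PBMC 2 and 3 had -0.08 and -0.40, -1.54 and -2.30, -2.25 and -2.77, and -0.60 and -1.06. Whole PBMC 1 thus fell 4 or more log2 units under its partners in these genes. With it, Itga4 was higher in Tem by 3.09 ± 0.77 (adjusted p = 0.00108), Selplg by 3.03 ± 0.57 (adjusted p = 6.3e-05), Itgb7 by 2.88 ± 0.58 (adjusted p = 1.4e-04), Itgb2 by 2.26 ± 0.83 (adjusted p = 0.0203) and Itgb1, which no whole PBMC array measured above background, by at least 1.85-fold (adjusted p = 0.00721). Without it, the differences were 0.42 for Itga4 (adjusted p = 0.522), 0.76 for Selplg (adjusted p = 0.0568), 0.65 for Itgb7 (adjusted p = 0.154), and -0.22 for Itgb2 (adjusted p = 0.825), the adjusted p for Itgb1 was 0.363, and 1 member stayed called. That member was Itgav, lower in Tem by -1.22 ± 0.47 (adjusted p = 0.0283) and by -1.68 without whole PBMC 1 (adjusted p = 0.0485). The Itgav call was lost without Tem 3 (-0.85, adjusted p = 0.108) or whole PBMC 3 (-1.23, adjusted p = 0.0613). Its probe was above background on 2 of 6 Tem and 1 of 3 PBMC arrays. Probes that were never above background read -0.73 in Tem minus whole PBMC, and the part of that shift in the Itgav call was not tested. Cd44 (0.21, adjusted p = 0.694) was not called, and neither was Itgal (1.03, adjusted p = 0.0892), although its other probe gave 2.56 (adjusted p = 0.00299). However, Cd44 was called lower in Tem with quantile normalization and with the deposited values (-1.18, adjusted p = 0.00847 in each). Cd44 was also called lower without whole PBMC 1, whole liver 2, liver Trm 3 and Tem 3 (-1.07, adjusted p = 0.0436).

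Across the 8 groups, Itgb7 and Selplg had their 4 highest mean levels in the sorted groups, and the place of whole PBMC rested on whole PBMC 1 for other members. Itgb7 ran Tem 1.16, lung Trm 0.83, intestine Trm 0.78 and liver Trm 0.68, then whole PBMC -1.72, whole lung -2.59, whole intestine -3.18 and whole liver -4.47. Its only neighbours without overlap were liver Trm and whole PBMC, the step from sorted to unsorted. Selplg also put the sorted groups first, with Tem 0.68, intestine Trm 0.31, lung Trm 0.20, liver Trm 0.03, whole PBMC -2.35, whole lung -3.35, whole intestine -4.17 and whole liver -4.59, and its ranges parted only between whole lung and whole intestine. Itga4 led with Tem at -0.74, apart from lung Trm (-2.22), intestine Trm (-2.82) and liver Trm (-3.02), which overlapped each other, whole PBMC (-3.84) and then whole lung (-4.93), with whole intestine (-6.55) and whole liver (-7.83) apart at the end. Cd44 led with intestine Trm at -2.47, apart from Tem (-3.79), whole PBMC (-4.00), lung Trm (-4.39), liver Trm (-4.71), whole lung (-4.74), whole liver (-5.01) and whole intestine (-5.71), where all neighbours overlapped.

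The beta2 and beta1 chains had no such break between sorted and unsorted groups. Itgb2 ran from Tem (-1.97) through lung Trm (-2.42), intestine Trm (-3.29), liver Trm (-3.90), whole PBMC (-4.23), whole lung (-6.10) and whole liver (-7.27) to whole intestine (-8.23) with overlap at each step. Itgb1 ran from Tem (-5.11) to liver Trm (-7.00), again with every neighbour overlapping, and Itgav was highest in whole liver (-5.56). Itgal ran from Tem (-3.89) to whole lung (-6.44) and whole intestine (-7.02), the last 2 apart. Over whole PBMC 2 and 3 alone, the PBMC mean was -0.24 for Itgb7 and -0.83 for Selplg, still in place 5 of 8, and whole lung then lay below both arrays without overlap. It rose to -1.92 for Itga4, from place 5 to place 2 behind Tem, and to -2.51 for Itgb2, from place 5 to place 3. So for alpha4 and beta2 the order of whole PBMC against the Trm groups was set by 1 array. The PBMC mean moved to place 2 for Cd44 (-3.41), 3 for Itgb1 (-6.55, not above background), 3 for Itgav (-6.17) and 4 for Itgal (-4.69).

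**Figure D5:**
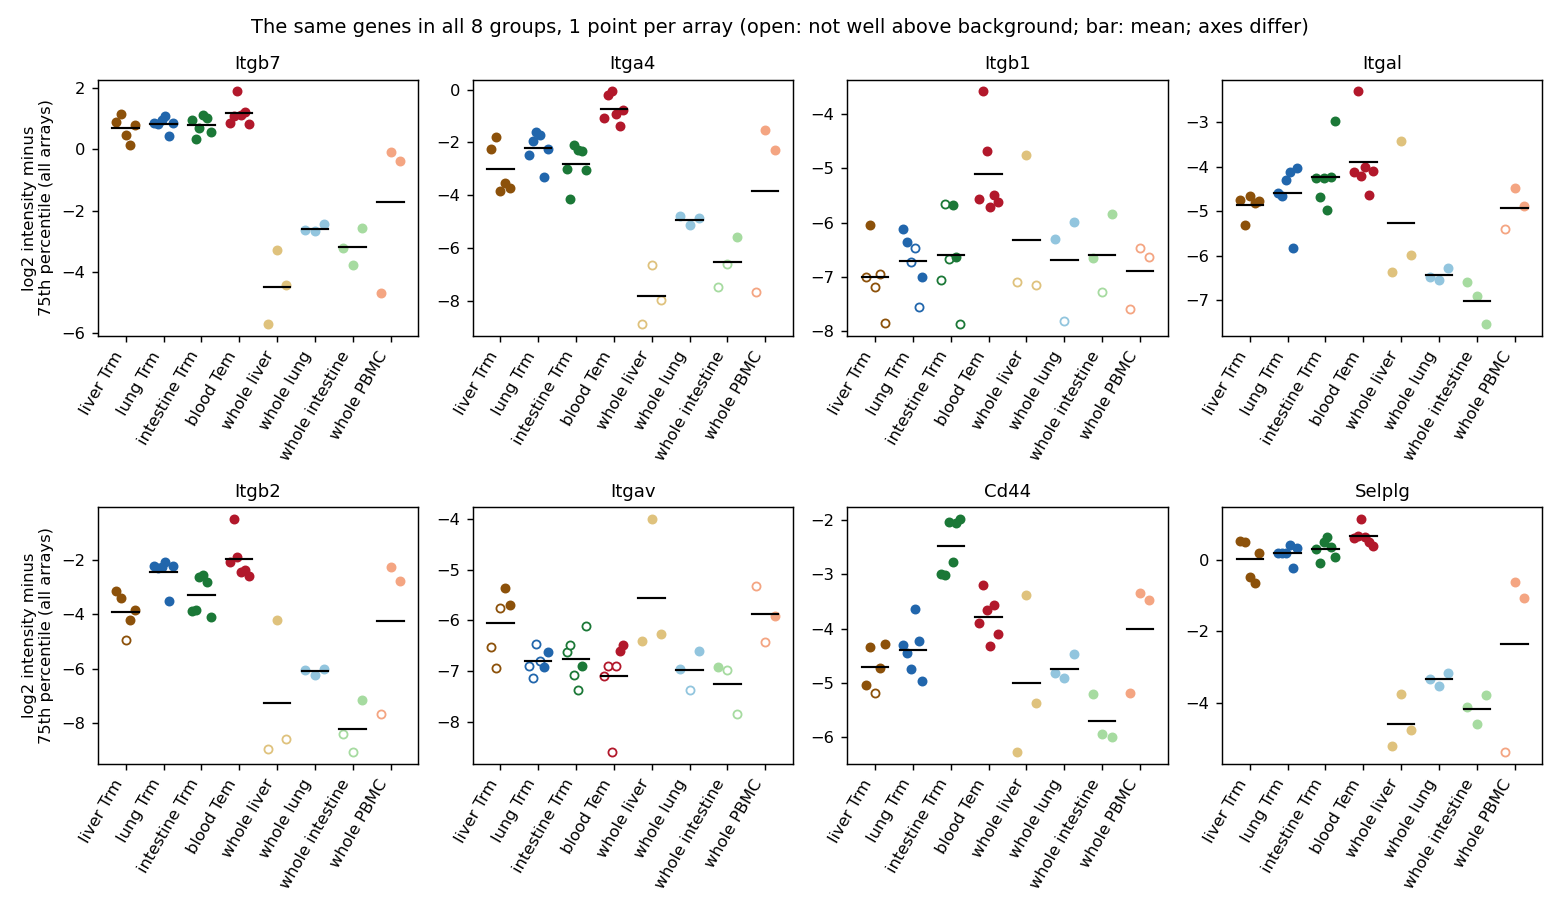
Log2 level of the 8 tested members on all 35 arrays, by group, relative to each array's 75th percentile (0), with bars for the group mean and open points for arrays not well above background. Itgb7 splits sorted from unsorted samples, Cd44 is highest in intestine Trm (mean -2.47), and whole PBMC 1 and whole liver 2 stand apart from their partners.

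The members kept unlike company over the 23 sorted arrays, which share arrays and scaling. Itgb7 ran most closely with the T cell markers Thy1 (Pearson r = 0.857) and Lck (0.784) and then with Lsp1 (0.740), and the value for Thy1 was 0.851 within groups. Itga4 was closest to Prex1 (0.923), Gpr174 (0.920) and Tgs1 (0.916), Itgb2 to Fbxl14 (0.893), Nckap1l (0.891) and Xpo1 (0.888), and Itgal to Zfp943 (0.902), Nans (0.896) and Mrpl4 (0.887). Itgb1 was closest to the fractalkine receptor gene Cx3cr1 (0.836, and 0.622 within groups), then Rom1 (0.822) and Man2a1 (0.821), and Selplg to Htt (0.810), Tln1 (0.805), which encodes the integrin activator talin, and Lypla2 (0.783). Cd44 was closest to Tcf25 (0.867), Ndfip1 (0.862) and Plscr1 (0.852), but within groups these fell to 0.280, 0.529 and 0.322. Among members, Itga4 ran with Itgb2 (0.772) and Itgb1 (0.637, and 0.215 within groups), Itgb7 with Selplg (0.685), and the alpha4beta7 pair gave 0.435 and the LFA-1 pair 0.595.

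For the machinery that switches integrins on, the called genes were all on the lower side. Of 30 tested genes of integrin activation and linkage to actin, 11 were lower and 0 higher in liver Trm, 7 lower and 0 higher in intestine Trm, and 0 either way in lung Trm, with list medians of -0.56 in liver, -0.50 in intestine and -0.30 in lung (-0.28, -0.03 and -0.10 over all genes). The lower shares over all genes were 25.4% in liver, 9.60% in intestine and 1.03% in lung, and the higher shares 14.9%, 8.10% and 2.10%, and these stand beside every list below. At an unadjusted p under 0.05, limma gave 6 lower and 0 higher in lung Trm, and with array weights 5 passed the adjusted threshold there. Without liver Trm 3 and Tem 3 the liver count fell from 11 to 5, and with scaling over all probes it was 22. Rasgrp1, the exchange factor that couples the T cell receptor to Ras, fell by 2.12 in liver (adjusted p = 0.0225) and fell by 2.35 in intestine (adjusted p = 0.0189). In liver, Sipa1, which switches off Rap1, fell by 1.58 (adjusted p = 0.00822) and Rapgef1, which switches Rap1 on, fell by 1.504 (adjusted p = 0.0148). In intestine, Zyx, which encodes the focal adhesion protein zyxin, fell by 1.58 (adjusted p = 6.6e-05) and Apbb1ip, whose product RIAM brings talin to integrins, fell by 1.52 (adjusted p = 0.00197). Genes that act in opposite directions on Rap1 thus lay on the same side in liver, and the list as a whole is not read as more or less activation.

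Genes that equip PSGL-1 and other selectin ligands, or act on hyaluronan, were called about as often as all genes in liver Trm. Of 13 tested, 4 were lower and 2 higher in liver Trm, 1 lower and 0 higher in lung Trm, and 3 lower and 0 higher in intestine Trm, with list medians of -0.29, -0.17 and -0.37 (-0.28, -0.10 and -0.03 over all genes). The liver count of 4 of 13 lower lies near the 25.4% of all genes and is no result about the list. Tpst2, a tyrosine sulfotransferase that modifies PSGL-1, fell by 1.14 in liver (adjusted p = 0.00317), fell by 0.94 in lung (adjusted p = 0.0318) and fell by 0.72 in intestine (adjusted p = 0.0434). In liver, St3gal6, a sialyltransferase, fell by 1.95 (adjusted p = 0.00341), and Snx20, whose product binds PSGL-1, fell by 1.36 (adjusted p = 0.00712). The hyaluronidase gene Hyal2 rose by 1.55 (adjusted p = 0.0230) and the core 2 branching enzyme gene Gcnt1 by 1.19 (adjusted p = 0.0401) there. In intestine, Fut7, the fucosyltransferase of selectin ligands, fell by 1.24 (adjusted p = 0.0336).

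Of 6 other integrin genes tested, liver Trm had 2 lower, Itgax (alphaX, -3.21, adjusted p = 0.00220) and Itgb3 (-1.36, adjusted p = 0.0110), lung Trm had none (2 lower and 0 higher at an unadjusted p under 0.05), and intestine Trm had 1 higher, Itgb5 (2.18, adjusted p = 0.0496). Itgax and Itgb3 were above background on 6 of 6 Tem arrays and on 1 and 2 of 5 liver Trm arrays. Among 16 other adhesion receptors, liver Trm had 1 higher and 4 lower (2 called in all without liver Trm 3 and Tem 3), lung Trm 2 higher and 1 lower, and intestine Trm 2 higher and 1 lower. The 4 of 16 lower in liver are close to the 25.4% of all genes and the intestine counts to 8.10% and 9.60%, so these counts are given as a description of single genes. Cd48, a ligand of CD2 family receptors, fell by 2.22 in liver (adjusted p = 7.1e-04), Crtam fell by 2.13 (adjusted p = 0.0100) and Cd244a fell by 1.35 (adjusted p = 0.0268). In lung, the tetraspanin genes Cd63 (at least 6.94-fold, adjusted p = 0.00190) and Cd9 (1.90, adjusted p = 0.00652) rose and Spn, which encodes CD43, fell by 0.87 (adjusted p = 0.0178). In intestine, the tetraspanin gene Cd81 rose by 4.39 (adjusted p = 0.00190) and Cd2 fell by 0.74 (adjusted p = 0.0245).

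The ligands of the members were called higher more often than lower in liver and intestine Trm. Of 22 listed ligands, 10 passed the filter, which a gene can do through a Trm group alone. The filter thus partly sets the side of such calls, so the counts are no result about the list. Of 10 tested, 5 were higher in liver Trm and 0 lower (2 called in all without liver Trm 3 and Tem 3), where 14.9% of all genes were higher. In lung Trm 1 was higher and 0 lower (2.10% higher over all genes), and in intestine Trm 8 were higher and 1 lower (8.10% and 9.60%). Fibronectin, Fn1, which hepatocytes secrete, rose by 4.45 in liver Trm (adjusted p = 0.00318), where all 12 tested hepatocyte markers were higher too. Madcam1, the ligand of alpha4beta7, was at least 1.38-fold higher in intestine Trm (adjusted p = 0.0417), and it was tested only through the 3 of 6 arrays above background there, against 0 of 6 in Tem. The ligand that T cells themselves carry, Icam2, fell by 0.87 in intestine Trm (adjusted p = 0.0340). Icam1 was not tested, Vcam1 and Cdh1 only against the whole organs. Vcam1 was at least 19.2-fold lower in lung Trm than in whole lung, and Cdh1, the E-cadherin to which CD103 binds, was lower by -3.64 in intestine Trm and by -2.51 in lung Trm than in the whole organ. The part of carried-over tissue RNA in the ligand results was not tested.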

How the data were processed

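The authors deposited scanner files, 1 per array, whose values are an intensity per spot. Per the file headers these were made by Feature Extraction 11.0.1.1 with background subtraction, and the submitters' processing notes name Agilent Feature Extraction 10.7 and Partek. A table of log2 values was also deposited, which matched a quantile normalization of those intensities (largest median absolute difference over arrays 0.000764).

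Spots of 1 probe were averaged, and probes were named by accession through a RefSeq gene table for GRCm38.p6 (27508 of 39429 probes named). The log2 intensities were scaled by each array's 75th percentile over the probes detected (well above background) on each array of its fit: 4042 probes for the 23 sorted arrays and 1341 for all 35. A gene was its probe with the highest mean, kept if detected on 3 or more arrays of 1 group. limma 3.58.1 in R 4.3.3 (lmFit, eBayes) was fitted to 8621 genes on the sorted arrays and 10635 genes on all arrays, with 1 mean per group. Two-sided p-values were adjusted by Benjamini-Hochberg over all genes of a comparison and called under 0.05. Bounds ("at least") set the mean of the brighter group against, for each dimmer array, the higher of its lowest detected signal and the dim probe's own. The fitting was tested on simulated data.

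The 9 members and the adhesion lists were chosen with earlier results of these data known. Every member was named. From each list, the called genes named were up to 3 per direction with the largest difference, detected on all arrays of the brighter group, with Madcam1, Icam1, Vcam1, Cdh1 and Itgae added as ligands or partner, and the 3 genes most correlated with each member. Replicate numbers of the sorted groups followed the slide, yet same-numbered arrays did not deviate together: correlations of 33 pairs ran from -0.362 to 0.436 (median -0.0079), and 7 were over 0.1. They were therefore not used as pairs. 1 listed gene is not reported here. Alternatives were other scaling, normalization, background correction, filters, probe choice, array weights, blocks and left-out arrays. Normexp used an offset of 50.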

Additional observations from a re-analysis of the deposited data

Results flagged for a closer look

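Of 28 combinations of a tested gene and a sorted group, 5 held an array far from the others by Dixon's test, and chance sets apart about 1 in 20 groups. They fell on 2 arrays. Tem 2 was high for Itgal (-1.18 on the log2 scale of the sorted cells, next Tem array -2.81), for Itgb1 (-3.14, next -4.85) and for Itgb2 (-0.036, next -1.62). Lung Trm 5 was low for both LFA-1 chains, Itgal (-5.74, next -3.80) and Itgb2 (-2.68, next -1.78). Leaving out Tem 2 ended the calls of Itgb1 and Itgb2 in intestine Trm and of Itga4 and Itgb1 in lung Trm, as given above, and kept those of liver Trm.

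Differences between organs in the comparison with Tem were tested directly, since the shared Tem arrays cancel between 2 Trm populations. Such a difference was called for Cd44 between intestine and liver Trm (2.05) and between intestine and lung Trm (1.94), for Itgb2 between lung and liver Trm (1.26) and for Itgal between intestine and liver Trm (1.78). The second detected probes of Cd44 and Itgal gave no call in these comparisons. The Itgal call held in 5 of 13 alternative analyses.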

How the results depend on the processing

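Over all member values and list counts, 1285 of 1524 under another setting stayed the same, 83 were stronger, 93 weaker and 63 changed sign. A member value stayed the same if it kept its direction and its side of the threshold. It was stronger if it passed anew and weaker if it no longer passed. For a list these words refer only to the number of genes called, the same meaning a move of up to 1.5 times. All 63 sign changes were of member values. Of those 63, 2 had been called: Cd44 in intestine Trm minus Tem with its other probe, and Itgb2 in Tem minus whole PBMC. Cd44 passed the threshold on its new side in lung Trm minus whole lung with its other probe. It did so too in Tem minus whole PBMC with quantile normalization, the deposited values and 4 doubted arrays left out. Itga4 kept its calls in liver and intestine Trm, and Itgb7 gained none between sorted groups, under every setting run. The causes of the changes below were not tested. Scaling over all probes moves every gene by the same amount: -0.47 in liver Trm minus Tem, -0.03 in lung, -0.27 in intestine, 0.45 in lung minus liver Trm, 0.20 in intestine minus liver, -0.24 in intestine minus lung, 0.41, 0.14 and 0.01 in liver, lung and intestine Trm minus the whole organ, and -0.62 in Tem minus whole PBMC. Counts over all genes moved by over 1.5 times as follows. Liver Trm minus Tem called 3477, but 13973 of 20886 with no filter and 1774 without liver Trm 3 and Tem 3. Lung Trm minus Tem called 270, but 1576 with array weights. Lung minus liver Trm called 1537, but 3484 with all-probe scaling, 3383 with quantile normalization, 3404 with the deposited values, 10703 with no filter, 4850 with array weights and 937 with the replicate block. Intestine minus liver Trm called 1010, but 1655, 1674, 608, 618, 2988 and 628 with quantile normalization, the deposited values, normexp, no filter, array weights and the 2 groups only. Intestine minus lung Trm called 819, but 534 with no filter, 2645 with array weights and 1335 without liver Trm 3 and Tem 3. Array weights raised the counts against whole liver, lung and intestine from 3433, 4419 and 3384 to 6014, 7794 and 6687, and leaving out 4 doubted arrays lowered Tem minus whole PBMC from 5874 to 3130.

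With quantile normalization, and likewise with the deposited log2 values, the count of members called was 1 in lung Trm minus Tem, 1 in intestine Trm minus liver Trm and 2 in intestine Trm minus lung Trm. Values that turned sign there were Itgal -0.070 (-0.068 in the deposited values), Itgb7 0.23 and Selplg 0.10 (0.092 in the deposited values) in lung Trm minus liver Trm, Itgb7 0.11 in intestine Trm minus liver Trm, Itgb1 -0.14 in intestine Trm minus lung Trm, Itgb1 0.012 in lung Trm minus whole lung, Itgb1 -0.16 in intestine Trm minus whole intestine, Cd44 -1.18 and Itgal -0.35 in Tem minus whole PBMC. With normexp background correction, the count of members called was 2 in liver Trm minus Tem, 1 in lung Trm minus Tem and 1 in intestine Trm minus liver Trm. Signs also turned for Cd44 -0.21, Itgal -0.26 and Itgb1 -0.67 in lung Trm minus liver Trm, Itgb1 -0.39 in intestine Trm minus liver Trm, Itgb1 0.12 in liver Trm minus whole liver, Itgb1 0.0065 in lung Trm minus whole lung, Cd44 -0.039 in Tem minus whole PBMC. With scaling over all probes, the count of members called was 1 in lung Trm minus Tem and 2 in lung Trm minus liver Trm. The sign was the other way for Itgb7 0.37 and Selplg 0.39 in lung Trm minus liver Trm, Itga4 0.20 and Itgb7 0.099 in intestine Trm minus liver Trm, Itgb1 -0.11 and Selplg -0.11 in intestine Trm minus lung Trm, Itgb1 0.13 in lung Trm minus whole lung, Cd44 -0.41 in Tem minus whole PBMC. With no filter on dim probes, the count of members called was 0 in lung Trm minus Tem, 2 in intestine Trm minus Tem, 2 in lung Trm minus liver Trm and 1 in intestine Trm minus liver Trm. With the probes of a gene averaged, the count of members called was 1 in intestine Trm minus liver Trm. Turned in sign were Itgb1 -0.33 and Selplg 0.014 in lung Trm minus liver Trm, Itgb1 -0.19 in intestine Trm minus liver Trm, Cd44 -0.98 and Itgb1 0.12 in lung Trm minus whole lung, Itgb1 -0.20 in intestine Trm minus whole intestine. With array weights, the count of members called was 3 in lung Trm minus liver Trm and 2 in intestine Trm minus lung Trm. On the other side of 0 were Cd44 -0.14 in lung Trm minus liver Trm, Itga4 0.48 in intestine Trm minus liver Trm, Itgb1 -0.035 and Itgb7 0.0024 in intestine Trm minus lung Trm, Itgav 0.44 in liver Trm minus whole liver, Cd44 -0.47 in Tem minus whole PBMC. With only the 2 groups in the fit, the count of members called was 2 in intestine Trm minus Tem, 1 in intestine Trm minus liver Trm and 2 in intestine Trm minus lung Trm. Values that turned sign there were Itgb7 0.0012 in lung Trm minus Tem, Itga4 0.043 in intestine Trm minus liver Trm. With a random slide block, the count of members called was 1 in lung Trm minus Tem. Signs also turned for Itga4 0.011 in intestine Trm minus liver Trm. With liver Trm 3 and Tem 3 left out, the count of members called was 0 in lung Trm minus Tem and 1 in intestine Trm minus liver Trm. The sign was the other way for Itgb1 0.26 in lung Trm minus whole lung. With those 2 arrays, whole liver 2 and whole PBMC 1 left out, the count of members called was 3 in Tem minus whole PBMC. Turned in sign were Cd44 -0.044 and Itgav -0.23 in lung Trm minus whole lung, Cd44 -1.07 and Itgb2 -0.15 in Tem minus whole PBMC. With the other detected probe of a gene signs turned for Cd44 -0.31 in intestine Trm minus Tem, Itgb1 -0.74 and Selplg 0.080 in lung Trm minus liver Trm, Itgb1 -0.58 in intestine Trm minus liver Trm, Itgb1 0.075 in liver Trm minus whole liver, Cd44 -2.30 and Itgb1 0.24 in lung Trm minus whole lung, Itgb1 -0.41 in intestine Trm minus whole intestine. The last 2 of these settings were chosen after seeing the data.

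The replicate number as a block left 1 member called in lung Trm minus Tem, where Itga4 had an adjusted p of 0.0586, and turned Itgav to -0.021 and Itgb1 to 0.28 in lung Trm minus whole lung. It ended no call of a member in liver or intestine Trm minus Tem, and its pairing was not borne out by the arrays. Leaving out 1 array gave counts of 0 to 2 in lung Trm minus liver Trm, 1 to 2 in intestine Trm minus liver Trm, 0 to 2 in lung Trm minus Tem, 2 to 4 in intestine Trm minus Tem and 1 to 6 in Tem minus whole PBMC. Without 1 array the sign turned in liver Trm minus Tem, Itgb7 (-0.13 to 0.035), and in lung Trm minus liver Trm, Cd44 (-0.040 to 0.26), Itgb1 (-0.13 to 0.20) and Selplg (-0.20 to 0.056), and in intestine Trm minus liver Trm, Itga4 (-0.17 to 0.24), Itgb1 (-0.0074 to 0.45) and Selplg (-0.067 to 0.19). It also turned in lung Trm minus Tem, Itgb2 (-0.37 to 0.030), and in intestine Trm minus lung Trm, Itgb1 (-0.083 to 0.38) and Itgb7 (-0.084 to 0.036), and in liver Trm minus whole liver, Cd44 (-0.34 to 1.11), Itgal (-0.14 to 1.33), Itgav (-0.92 to 0.27) and Itgb1 (-1.07 to 0.11). Further turns came in lung Trm minus whole lung, Itgav (-0.031 to 0.35) and Itgb1 (-0.56 to 0.35), and in intestine Trm minus whole intestine, Itgb1 (-0.34 to 0.38), and in Tem minus whole PBMC, Cd44 (-1.13 to 0.54) and Itgb2 (-0.22 to 3.26).

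Depth here is signal over background. Liver Trm 3 and whole PBMC 1 had few probes above it, so a missing call for Itgb1, Itgav, Itga1 or the second probe of Cd44 sets little limit. The second Itgal probe is not among these, since it was well above background on every sorted array.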
